A study of Mus musculus with 74 samples.

Results

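Obox1, Obox2, Obox3, Obox5 and Obox6 are the 5 protein-coding Obox genes that lie together at one end of the Obox array on mouse chromosome 7. They were taken by symbol from the GENCODE M21 annotation of mm10 and are 5 of 21938 protein-coding genes on the 21 chromosomes analysed. The coverage of these genes by H3K9me3 peaks was followed from donor cells to SCNT blastocysts. H3K9me3, the trimethylation of lysine 9 of histone H3, had been profiled by ULI-NChIP-seq, a native ChIP-seq for very small samples in which uncrosslinked chromatin is cut with micrococcal nuclease and then precipitated. Among the 74 libraries of 20 groups in the labels, 41 were H3K9me3 precipitates and 33 inputs, and the authors had pooled the precipitates of each group into 1 peak list. Cumulus cells (CC), the follicular cells that surround the oocyte, served as nuclear donors, and both CC and oocytes came from B6D2F1 mice. Embryos from somatic cell nuclear transfer (SCNT), made by placing a CC nucleus in an enucleated oocyte, were collected 6 h and 14 h post activation (6 hpa and 14 hpa), at the 2-cell, 4-cell, 8-cell and morula stages, and as the blastocyst lineages inner cell mass (ICM) and outer trophectoderm (TE). All SCNT embryos had been activated with strontium in the presence of cytochalasin B. Fertilized zygotes at pronuclear stage 5 (PN5) came from C57BL/6 females mated with C57BL/6 males, and PN5 had not been profiled for this study. Their H3K9me3 data were taken from an earlier publication. Embryo type, strain and study therefore cannot be told apart in any comparison with PN5. The labels give the number of precipitated libraries as 4 in CC, 5 in 6 hpa, 4 in 14 hpa, 6 in 2-cell, 3 in 4-cell, 7 in 8-cell and 6 in morula embryos, with 2 each in ICM, TE and PN5. Since there is 1 list per group, no value below has a replicate error and no difference was tested. Peak lists hold no expression values, so cell identity could not be checked against marker genes.

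Obox genes encode homeodomain proteins of the paired-like type, related to CRX and OTX, that are made in oocytes and early embryos of the mouse. Maternally supplied family members, among them OBOX1, OBOX2 and OBOX5, and the zygotically expressed OBOX3 act redundantly in starting transcription of the embryonic genome at the 2-cell stage. OBOX6 is best known as a factor that raises the efficiency of reprogramming to pluripotency in culture. H3K9me3 is a mark of heterochromatin, and somatic cells keep many germline and embryonic genes under it.

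Part of the members are close copies of one another, which limits what short reads can tell. On mm10 the plus-strand genes Obox2 (ENSMUSG00000074369.12, chr7:15388721-15398545), Obox1 (ENSMUSG00000054310.16, chr7:15388948-15556866) and Obox5 (ENSMUSG00000074366.9, chr7:15750131-15759800) and the minus-strand genes Obox3 (ENSMUSG00000066772.12, chr7:15479825-15639902) and Obox6 (ENSMUSG00000041583.8, chr7:15833241-15839678) set a span of 451 kb, chr7:15388721-15839678. GENCODE draws Obox1 and Obox3 as genes of 168 kb and 160.1 kb that overlap by 77.0 kb. RefSeq draws them as compact genes of 9.59 kb (Obox1, chr7:15547257-15556846) and 14.5 kb (Obox3, chr7:15625306-15639777). Values of both models are given where the difference changes the reading. Of all positions in the span, 65.1% start a 150-base sequence that occurs once in the genome, 150 bases being the read length. In the RefSeq gene body that share was 45.0% for Obox1, 44.5% for Obox2, 87.1% for Obox3, 98.8% for Obox5 and 87.3% for Obox6. For the bases within 1 kb of the start it was 0% for Obox1 and Obox2, 79.0% for Obox3, 100% for Obox5 and 99.0% for Obox6. Reads from the Obox1 and Obox2 promoters therefore cannot be told apart, whereas those of Obox5 and Obox6 can be placed.

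The relation between the promoters is visible in their sequences, which RefSeq gives for GRCm38.p6, 250 bases before to 50 bases after each start, for 4 of the 5 members. They are shown because the peak calls at the promoters rest on how far these sequences can be separated. For Obox1, Obox3 and Obox5 the capitals mark the longest run that these 3 genes share, and for Obox2 they mark the run shared with Obox1.
Obox2 (chr7:15388601-15388900, plus strand): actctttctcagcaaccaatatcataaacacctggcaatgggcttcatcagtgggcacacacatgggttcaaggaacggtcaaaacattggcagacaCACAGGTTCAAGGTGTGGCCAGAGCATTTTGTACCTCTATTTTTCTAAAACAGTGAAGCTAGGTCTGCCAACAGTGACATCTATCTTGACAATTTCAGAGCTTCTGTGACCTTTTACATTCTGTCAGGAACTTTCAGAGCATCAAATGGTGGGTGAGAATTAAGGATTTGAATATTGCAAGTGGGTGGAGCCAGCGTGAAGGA
Obox1 (chr7:15547007-15547306, plus strand): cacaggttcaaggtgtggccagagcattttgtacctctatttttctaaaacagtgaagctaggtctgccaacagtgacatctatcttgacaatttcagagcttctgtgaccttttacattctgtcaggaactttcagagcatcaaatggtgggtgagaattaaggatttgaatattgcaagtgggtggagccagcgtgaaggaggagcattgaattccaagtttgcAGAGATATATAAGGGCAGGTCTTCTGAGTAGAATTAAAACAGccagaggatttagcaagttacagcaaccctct
Obox3 (chr7:15639728-15640027, minus strand): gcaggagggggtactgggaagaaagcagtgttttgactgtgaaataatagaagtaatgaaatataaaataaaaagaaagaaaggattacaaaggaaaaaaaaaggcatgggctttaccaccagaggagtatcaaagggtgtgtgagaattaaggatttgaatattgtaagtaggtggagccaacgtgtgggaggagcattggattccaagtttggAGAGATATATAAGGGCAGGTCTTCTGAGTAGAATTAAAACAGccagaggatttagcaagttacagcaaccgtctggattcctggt
Obox5 (chr7:15750120-15750419, plus strand): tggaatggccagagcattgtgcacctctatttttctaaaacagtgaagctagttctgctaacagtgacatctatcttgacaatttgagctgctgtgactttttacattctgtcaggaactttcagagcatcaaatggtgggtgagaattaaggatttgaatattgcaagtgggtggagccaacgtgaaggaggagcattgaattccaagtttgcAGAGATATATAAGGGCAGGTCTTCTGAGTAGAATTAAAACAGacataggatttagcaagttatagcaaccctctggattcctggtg
The windows of Obox2 and Obox1 are offset because their annotated starts differ, and over the 203 bases in which they overlap every base was identical. The aligned part was 95.5% identical between Obox1 and Obox5 (275 of 288 bases) and 81.5% identical between Obox1 and Obox3 (220 of 270 bases). The run of 42 bases common to the windows of Obox1, Obox3 and Obox5 holds the letters TATATAAG, a TATA-box-like stretch. On either strand these 8 letters occurred in 1.01% of the 32851 tabled mouse promoters of the same length (331 promoters), and the whole run occurred in 4 of them, the fourth being that of Obox7. Obox2 has the run too, in the exact duplication with Obox1 described below, but its window ends before that position. Each window held only 1 or 2 CpG dinucleotides. Within 1 kb of the GENCODE start the members had 8 to 18 CpGs and a GC content of 44.0% to 48.9%, against medians of 61 CpGs and 51.2% over all protein-coding promoters. All 5 fell in the low-CpG class, which held 7094 promoters (32.3%).

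Peaks filled almost the whole Obox span in donor cells and lay in scattered islands in embryos. In CC 92.3% of the span was covered (Wilson 95% interval 89.4% to 94.4%, counting each kb as 1 unit), by 30 peaks of which the longest was 82.0 kb. In 6 hpa embryos coverage was 43.4% (39.0% to 48.1%) in 134 peaks, and in 14 hpa embryos it was 68.4% (63.9% to 72.4%) in 114 peaks. The block that was nearly continuous in CC thus appeared as many separate peaks in both lists of SCNT embryos before cleavage. Coverage was 25.7% (21.9% to 29.9%) in 2-cell embryos, 22.1% (18.6% to 26.2%) in 4-cell embryos and 22.3% (18.6% to 26.2%) in 8-cell embryos. It was 32.4% (28.2% to 36.8%) in morulae, 30.8% (26.7% to 35.2%) in ICM and 23.4% (19.8% to 27.6%) in TE. Fertilized PN5 zygotes had 8.36% (6.20% to 11.4%), in 29 peaks of at most 5.18 kb. The order ran CC, 14 hpa, 6 hpa, then the lists from the 2-cell stage to TE, and PN5 last. Among those from the 2-cell stage to TE, neighbours in the order had overlapping intervals, the 2-cell interval overlapped those of morula and ICM, and the order of morula and 2-cell turned at equal list length (24.9% and 25.1%, with lists shortened as described next). These intervals cover counting error only.

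**Figure D1:**
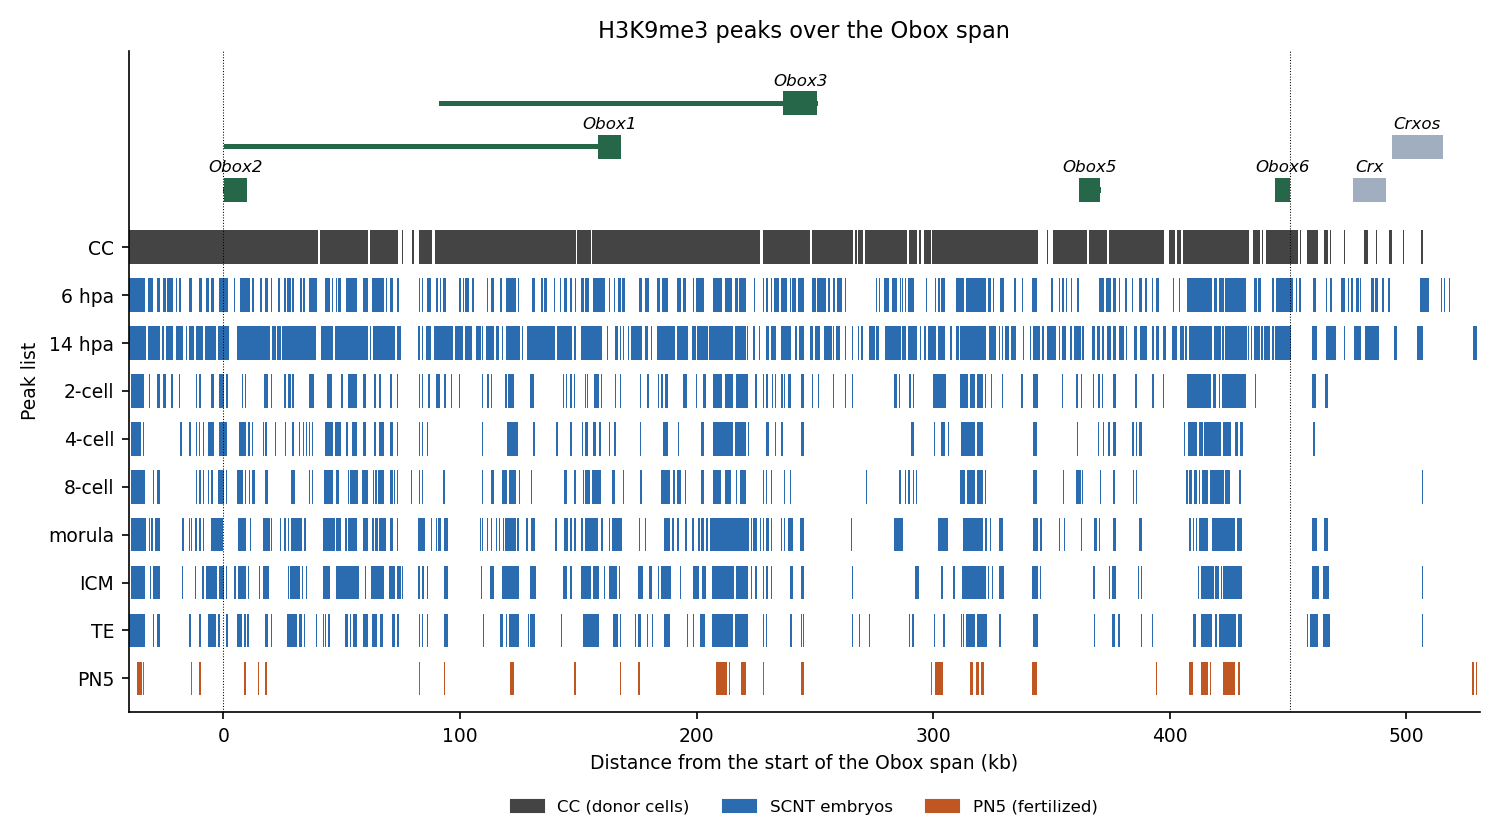
Merged H3K9me3 peaks (filled blocks) in the 10 lists, 1 row per list, against distance in kb from the start of the Obox span, whose ends are dotted lines; thick green bars are RefSeq gene models, thin green bars the longer GENCODE extents, and grey bars Crx and Crxos. The CC row is nearly solid up to about the end of Obox6, the SCNT rows are broken into islands, and PN5 has 29 peaks.

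The 14 hpa value depends on how long that list is. The 14 hpa list covered 237 Mb of the genome against 157 Mb in 6 hpa embryos. With every list cut to the covered length of the shortest, by removing peaks of lowest −log10 q, the span had 44.2% in 14 hpa embryos and 40.9% in 6 hpa embryos. CC still had 90.5% and PN5 8.36% on that footing. With a −log10 q of at least 2 instead, the span had 64.3% in 14 hpa embryos, 38.4% in 6 hpa embryos and 6.94% in PN5. The excess of 14 hpa over 6 hpa was thus kept at that cut and shrank at equal list length. Both lists kept a wide margin over PN5 under either alternative.

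The span was far more covered than the autosomes as a whole in every SCNT list. Over all autosomes peaks covered 8.86% in CC, 5.77% in 6 hpa embryos, 8.63% in 14 hpa embryos and 5.12% in 2-cell embryos, so that the span exceeded them 10.4-fold, 7.51-fold, 7.93-fold and 5.02-fold. From the 4-cell stage to TE the ratio lay between 3.17 (8-cell) and 4.78 (ICM), and in PN5 it was 1.55. Set against 5451 successive autosomal windows of the same length, 13 windows (0.238%) were covered at least as much as the span in CC, 21 (0.385%) in 14 hpa embryos, and 17 (0.312%) in ICM. The share of such windows was 0.771% in TE, 1.14% in morulae, 1.17% in 6 hpa embryos, 2.05% in 2-cell embryos, 4.38% in 4-cell embryos, 5.03% in 8-cell embryos and 16.3% in PN5. The Obox span thus stood highest among windows of its size in CC, ICM and 14 hpa, lower in cleavage embryos and lowest in PN5.

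**Figure D2:**
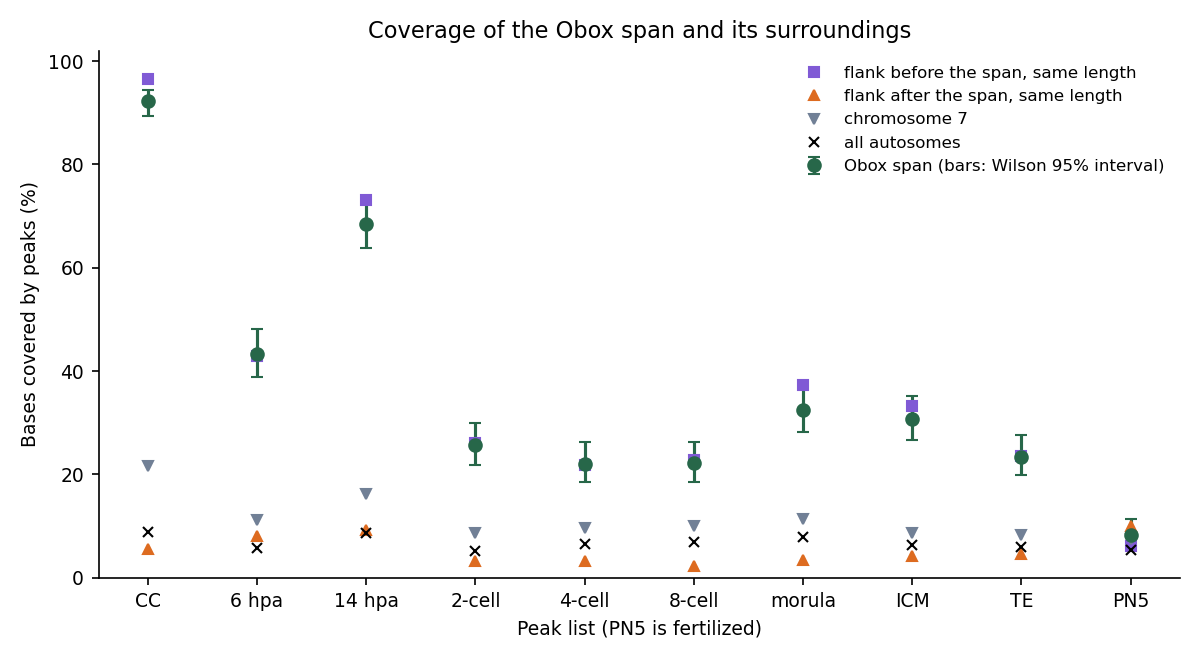
Share of bases covered by H3K9me3 peaks (y axis, %) in each list for the Obox span (green circles, bars are Wilson 95% intervals over 1-kb units), for the flanks of the same length before and after it, for chromosome 7 and for all autosomes. The span and the flank before it run together from 92.3% and 96.5% in CC to 8.36% and 6.09% in PN5, and the flank after the span stays between 2.21% and 10.04%.

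The domain ended near Obox6. The flank of the same length before the span, which holds Obox pseudogenes, had 96.5% in CC, 42.8% in 6 hpa embryos, 73.1% in 14 hpa embryos and 26.0% in 2-cell embryos, close to the span itself. The flank after the span had 5.58% in CC, 8.11% in 6 hpa embryos, 9.26% in 14 hpa embryos and 10.04% in PN5. In CC the last 25 kb of the span were 84.7% covered, the next 25 kb 45.5%, and the following 25-kb windows 17.3%, 3.20% and 0%. Crx, the photoreceptor homeobox gene that begins 26268 bases after Obox6, was 20.0% covered in CC, 36.0% in 6 hpa embryos and 61.4% in 14 hpa embryos, and between 0% and 0.977% from the 2-cell stage to TE.

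All 5 gene bodies were marked in donor cells, and none was marked in 2-cell embryos. The term marked is used for a gene body with at least 50% of its bases, from annotated start to end, under peaks. In CC 5 of 5 members were marked, against 4.76% of all protein-coding genes. In 6 hpa embryos the count was 2 (Obox6, and Obox2 just past the threshold; background 3.83%) and in 14 hpa embryos it was 4 (all but Obox5; background 3.4%). The shares of members in these 3 lists were many times the background. At equal list length 3 members were marked in 14 hpa embryos, as the GENCODE body of Obox3 had 45.7%. The members are not separate features, however. The GENCODE body of Obox1 takes in nearly all of that of Obox2 and overlaps that of Obox3, so some bases count for several members. No member was marked in 2-cell embryos (background 1.98%), 4-cell embryos (2.26%), 8-cell embryos (2.23%) or morulae (1.68%). In ICM 1 member, Obox2, passed with 53.5% (background 1.08%). In TE no member was marked (background 0.843%), and in PN5 none was marked either (background 1.95%). With RefSeq models the counts were 5 in CC, 2 in 6 hpa embryos (Obox3 and Obox6), 3 in 14 hpa embryos, 1 in morulae (Obox1) and 1 in ICM, and 0 in the other lists. The median coverage over the 5 members was 97.8% in CC, 42.8% in 6 hpa embryos, 70.3% in 14 hpa embryos and 18.3% in 2-cell embryos, where the medians over all protein-coding genes were 0%, 1.28%, 0% and 0%.

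**Figure D3:**
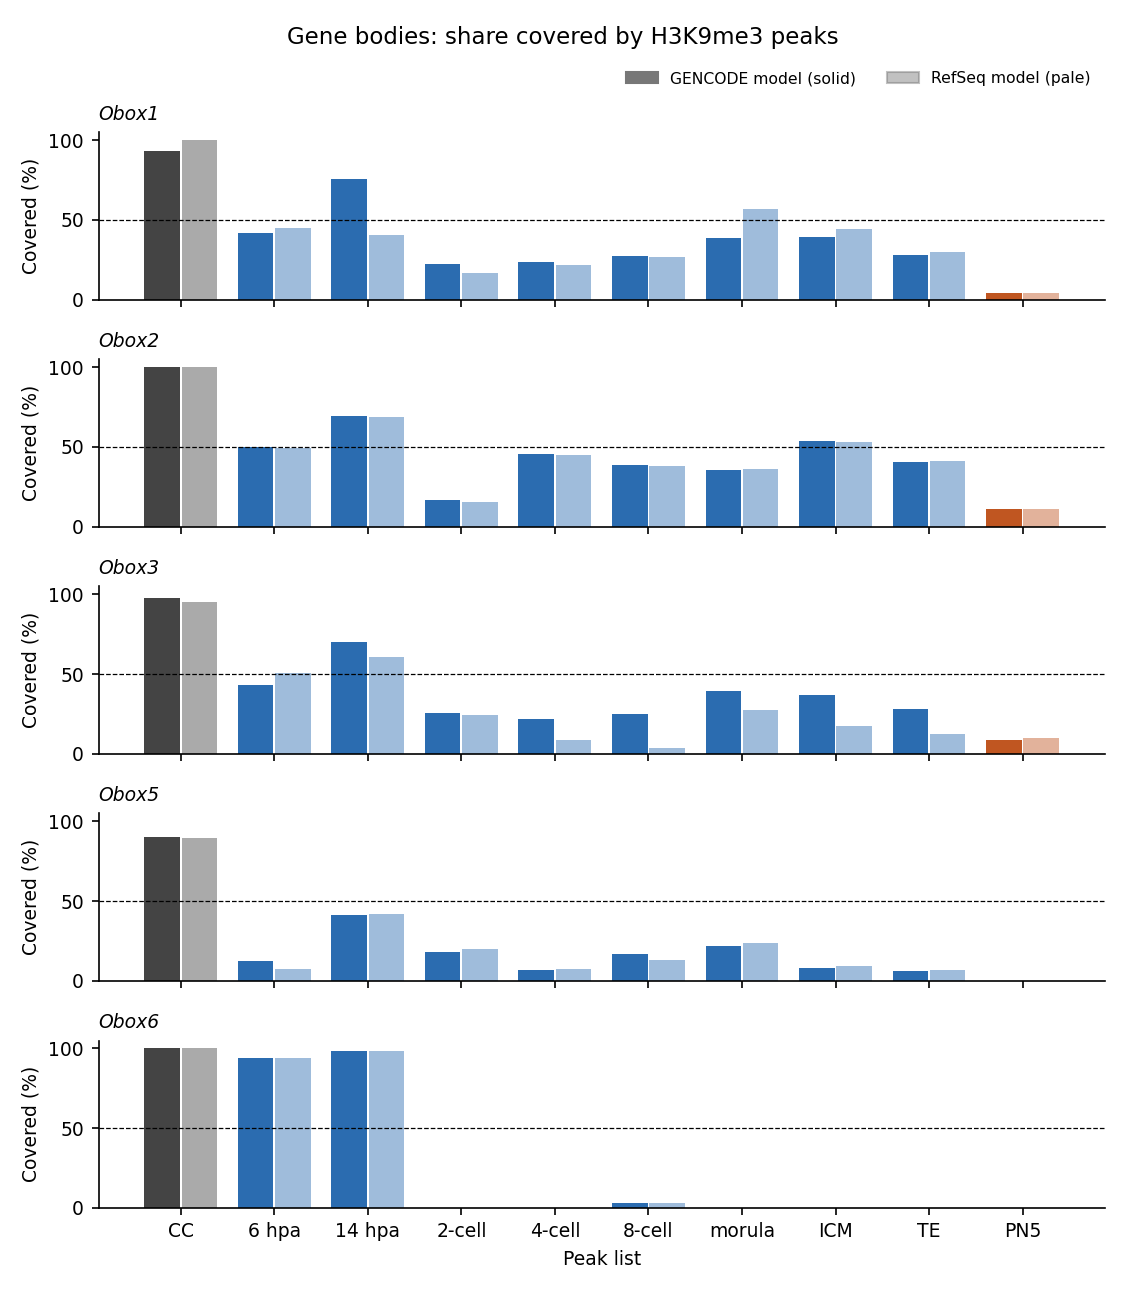
Share of each gene body covered by H3K9me3 peaks (y axis, %) in the 10 lists for the 5 members, with the GENCODE model as solid and the RefSeq model as pale bars; the dashed line is the 50% threshold. Obox6 drops from 98.5% in 14 hpa embryos to 0% in 2-cell embryos. Obox1 and Obox2 keep intermediate coverage up to TE in both models, and Obox3 does so in the GENCODE model only.

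Among the maternally supplied members, Obox2 and Obox1 kept partial coverage through the blastocyst. The Obox2 body was covered to 100% in CC, 50.02% in 6 hpa embryos, 69.2% in 14 hpa embryos, 16.5% in 2-cell embryos, 45.6% in 4-cell embryos, 38.8% in 8-cell embryos, 35.8% in morulae, 53.5% in ICM, 40.9% in TE and 10.9% in PN5. Obox1, in its RefSeq form, had 100%, 45.0%, 40.2%, 17.0%, 21.8%, 26.8%, 56.8%, 44.3%, 30.1% and 4.35% in the same order of lists. Both genes thus held their lowest SCNT value in 2-cell embryos and were lower still in PN5. In the long GENCODE form Obox1 had 75.5% in 14 hpa embryos and 38.8% in morulae, so its place relative to the threshold in these lists rests on the gene model. At equal list length the RefSeq form of Obox1 had 17.7% in 14 hpa embryos and 45.0% in 6 hpa embryos, and Obox2 was unchanged in both lists. The 3 coding exons of Obox1 were covered to 100% in CC and in morulae, 8.62% in 2-cell embryos and 0% in 4-cell embryos, and those of Obox2 to 100% in CC, 6 hpa, 14 hpa, 4-cell, morula and ICM. These genes also held the only member exons under a PN5 peak, with 29.8% of the coding bases of Obox1 and 35.1% of those of Obox2.

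Obox5, the third maternally supplied member, lost most of its coverage by 6 hpa. Its body had 90.5% in CC, 12.3% in 6 hpa embryos, 41.1% in 14 hpa embryos, 18.3% in 2-cell embryos, 6.95% in 4-cell embryos, 16.8% in 8-cell embryos, 21.9% in morulae, 8.28% in ICM, 6.10% in TE and 0% in PN5. At equal list length the Obox5 body had 12.9% in 14 hpa embryos and 12.3% in 6 hpa embryos. By the GENCODE models it was the least covered of the 5 members in CC, 6 hpa and 14 hpa. What remained lay partly on exons, since 84.1% of its coding bases were covered in morulae while its introns had 16.3%, and its coding exons had no peak in 8-cell embryos, in ICM or in TE.

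Obox3, the zygotically expressed member, was covered in its RefSeq form to 95.3% in CC, 50.6% in 6 hpa embryos, 61.0% in 14 hpa embryos, 23.998% in 2-cell embryos, 8.88% in 4-cell embryos, 3.83% in 8-cell embryos, 27.4% in morulae, 17.6% in ICM, 12.5% in TE and 9.92% in PN5. In its long GENCODE form it had 97.8%, 42.8%, 70.3%, 25.5%, 21.8%, 24.9%, 39.3%, 37.1%, 28.3% and 8.46%. The long form takes in pseudogene sequence, and from the 4-cell stage to TE it was the more covered of the pair. At equal list length 14 hpa embryos had 16.6% in the RefSeq form and 45.7% in the GENCODE form. The values in 6 hpa embryos were then 50.6% and 39.7%, so in the RefSeq form the order of 6 hpa and 14 hpa turned. The coding exons were covered to 100% in CC and in 14 hpa embryos, 68.8% in 6 hpa embryos, 47.7% in 2-cell embryos and 0% in 4-cell embryos, ICM, TE and PN5.

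Obox6 had an on-off course. Its body was covered to 100% in CC, 93.9% in 6 hpa embryos and 98.5% in 14 hpa embryos by 1 peak in each list, and to 0% in 2-cell and 4-cell embryos, morulae, ICM, TE and PN5, with 3.06% in 8-cell embryos. It was the member most covered in 6 hpa embryos and 14 hpa and the only one without a peak in 2-cell embryos. Over the genome 308 protein-coding genes were marked in CC, 6 hpa and 14 hpa together, and 32 of them (10.4%), Obox6 included, had no peak in 2-cell embryos. This course was picked out after the values of Obox6 were seen. The other 4 members all kept between 16.5% and 25.5% of the GENCODE body at that stage.

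Promoters, the bases within 1 kb on each side of the annotated start, were marked more often than bodies in several lists, although fewer of them had any peak in late embryos. In CC 5 of 5 promoters were marked by the same 50% threshold (background 5.26%). In 6 hpa embryos 4 were marked, all but Obox5 (background 8.56%), and in 14 hpa embryos all 5 were (background 4.74%). The 2-cell list had 2 marked promoters, Obox1 and Obox2 (background 3.1%), the 4-cell list the same 2 (background 2.78%) and the 8-cell list 3, with Obox5 added (background 2.45%). In morulae none was marked (background 1.87%), in ICM 2 were, again Obox1 and Obox2 (background 1.34%), and in TE none was (background 1.17%). In PN5 none was marked (background 3.58%), and no member had any promoter base under a PN5 peak. With RefSeq starts the counts were 3 in 2-cell embryos (Obox5 added), 1 in 4-cell embryos (Obox2) and 1 in TE (Obox1), and the same in the other lists. By GENCODE models, from morula to TE 3 members had no promoter peak at all and 1, Obox6, had no body peak. In PN5 these numbers were 5 and 2. Most protein-coding genes had no promoter peak either: 92.7% in morulae, 93.7% in ICM, 93.7% in TE and 88.5% in PN5. Those without a body peak were 60.4%, 60.0%, 59.4% and 45.7% in the same lists. Lack of a peak was therefore common and not particular to the members.

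**Figure D4:**
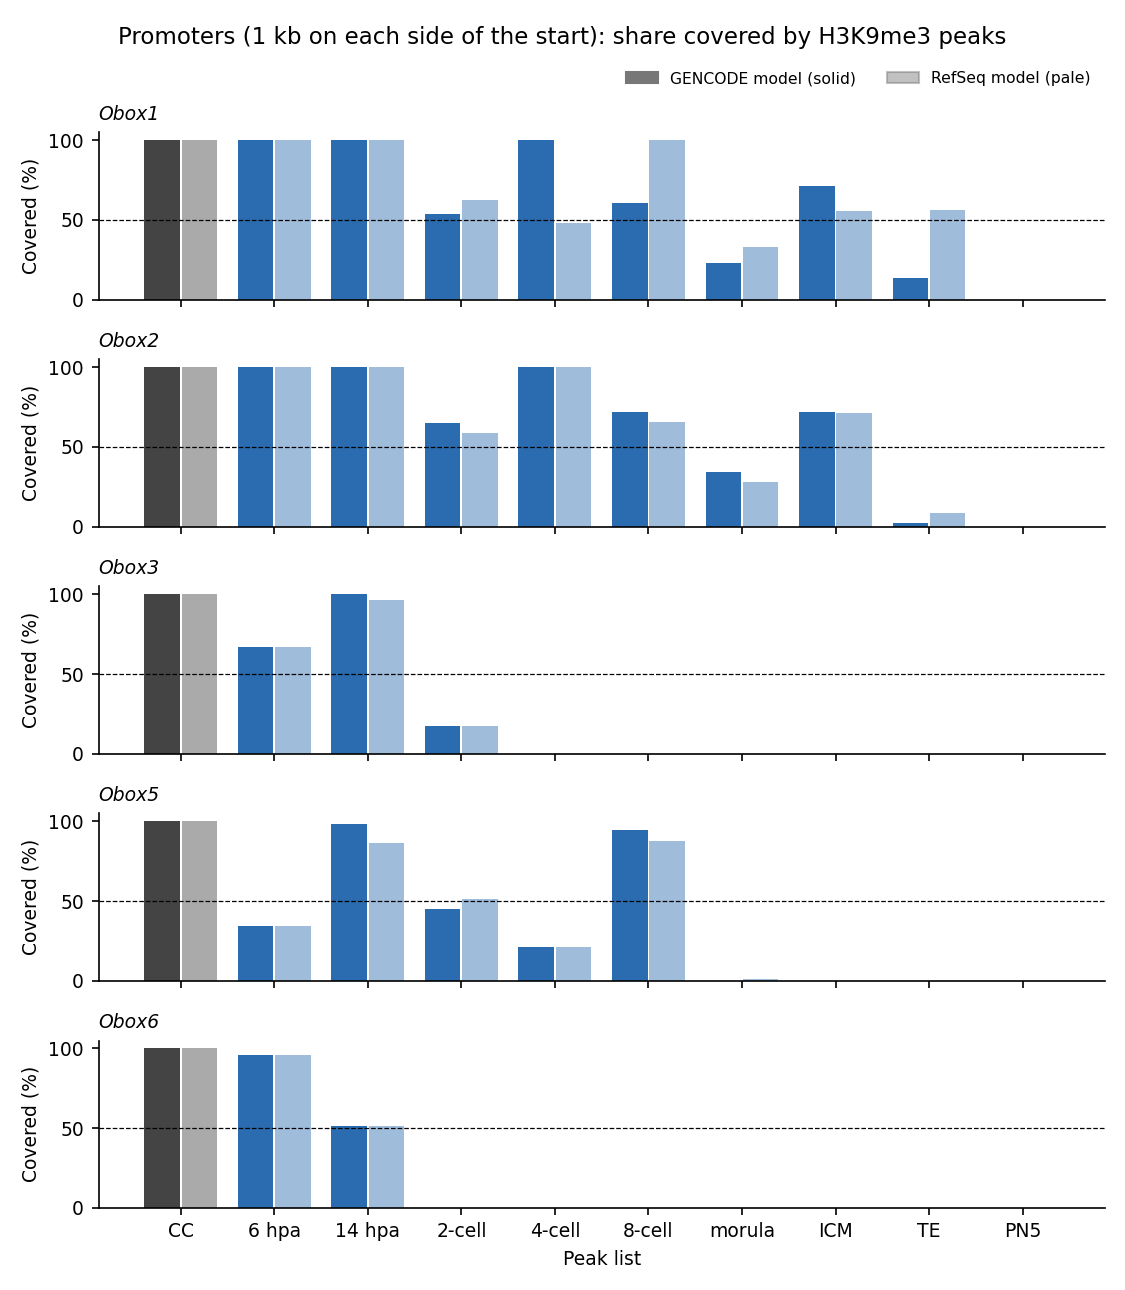
Share of the 2 kb around each annotated start covered by H3K9me3 peaks (y axis, %) in the 10 lists, with GENCODE starts as solid and RefSeq starts as pale bars; the dashed line is the 50% threshold. Obox3 and Obox6 have no promoter peak after the 2-cell list, whereas Obox1 and Obox2 keep one up to TE and PN5 is at 0% throughout.

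The last list with a promoter peak differed between members. The Obox2 promoter had 100% in CC, 6 hpa, 14 hpa and 4-cell, 65.2% in 2-cell embryos, 72.2% in 8-cell embryos, 34.5% in morulae, 71.8% in ICM and 2.30% in TE. For Obox1 the RefSeq start gave 100% in CC, 6 hpa, 14 hpa and 8-cell, 62.3% in 2-cell embryos, 48.2% in 4-cell embryos, 32.9% in morulae, 55.3% in ICM and 56.2% in TE. Its GENCODE start lies beside that of Obox2, so by the main definition both genes were read from nearly the same window. At the Obox5 promoter coverage was 100% in CC, 34.1% in 6 hpa embryos, 98.2% in 14 hpa embryos, 45.2% in 2-cell embryos, 20.99% in 4-cell embryos and 94.8% in 8-cell embryos, with none later. The Obox3 promoter had 100% in CC, 66.97% in 6 hpa embryos, 100% in 14 hpa embryos and 17.1% in 2-cell embryos, with none later, and that of Obox6 had 100%, 95.7% and 51.5% up to 14 hpa and none from the 2-cell stage on. After the 8-cell stage, promoter coverage of at least 10% was thus seen only at Obox1 and Obox2, the genes whose promoter reads cannot be placed uniquely. Several of these calls were weak: with a −log10 q of at least 2, no member promoter was marked by its GENCODE start in 4-cell or 8-cell embryos, although the RefSeq start of Obox1 still had 100% in 8-cell embryos, and at equal list length the promoters of Obox3 and Obox5 had no peak in 14 hpa embryos.

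An exact duplication between Obox2 and Obox1 gave a measure of how steady the peak calls were. A stretch of 8643 bases that runs through the Obox2 start (chr7:15381591-15390233) recurs base for base 158.3 kb farther on, through the Obox1 start (chr7:15539900-15548542), and 99.5% of its 150-base sequences occur exactly 2 times in the genome. Coverage of the Obox2 and Obox1 copies was 100% and 91.6% in CC, 66.7% and 74.5% in 6 hpa embryos, 90.4% and 98.8% in 14 hpa embryos, and 43.6% and 35.0% in 2-cell embryos. It was 66.3% and 48.2% in 4-cell embryos, 47.8% and 75.2% in 8-cell embryos, 62.2% and 73.0% in morulae, 85.5% and 75.8% in ICM, and 53.8% and 80.8% in TE. Neither copy had a peak in PN5. Since the copies have the same sequence, the difference between them, up to 27.4 percentage points in 8-cell embryos and 26.9 points in TE, is not a difference that reads inside the stretch could resolve. Over shorter windows inside the stretch the calls parted further, since the Obox2 promoter and the RefSeq promoter of Obox1, whose starts are slightly offset, had 2.30% and 56.2% in TE and 100% and 48.2% in 4-cell embryos. Differences between Obox1 and Obox2 within a list, at the promoters in particular, were therefore not read as differences between the genes. Both copies were more covered than the span as a whole in each list from the 2-cell stage to TE.

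**Figure D5:**
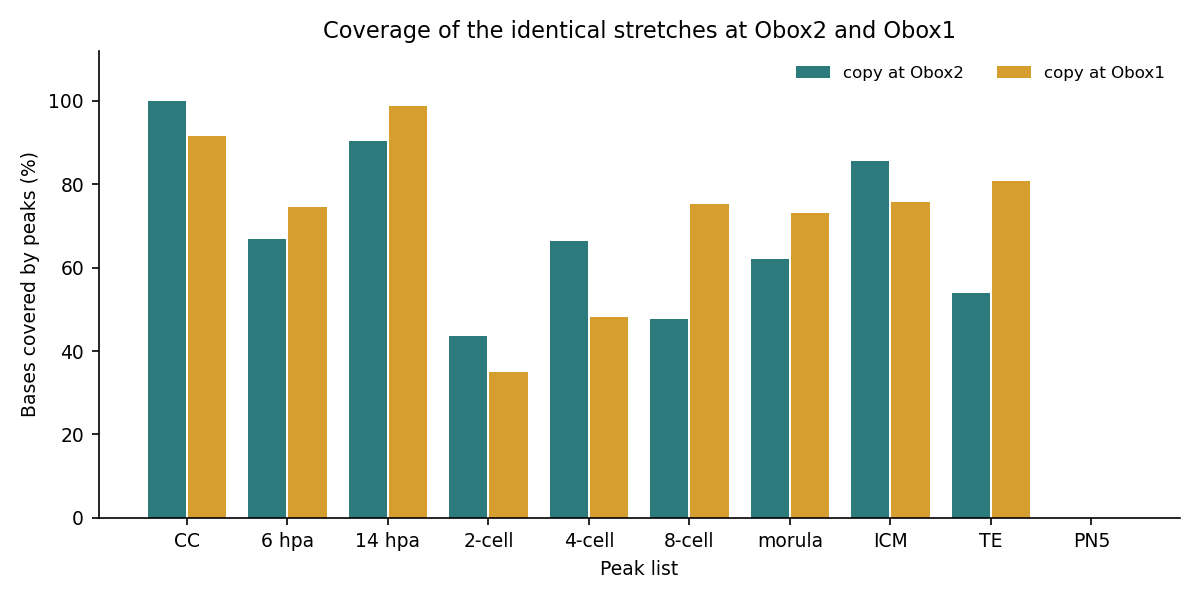
Share of bases covered by H3K9me3 peaks (y axis, %) in the 10 lists for the 8643-base stretch at Obox2 (teal) and its identical copy at Obox1 (gold). The copies differ by 7.80 points in 6 hpa embryos and by 27.4 points in 8-cell embryos, and both are at 0% in PN5.

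Across the span, sequence copy number moved with coverage in most embryo lists. Bases starting a 150-base sequence found once and those starting a repeated one had 94.8% and 87.8% coverage in CC, 42.8% and 44.4% in 6 hpa embryos, 66.2% and 72.5% in 14 hpa embryos, and 25.7% and 25.7% in 2-cell embryos. They had 18.9% and 28.2% in 4-cell embryos, 17.6% and 31.0% in 8-cell embryos, 26.5% and 43.5% in morulae, 24.4% and 42.6% in ICM and 19.8% and 30.2% in TE. Repeated sequence was thus more covered in 14 hpa embryos and from the 4-cell stage to TE, and in PN5 the values were 8.67% and 7.79%. Their part in the member values was not tested. Soft-masked bases, which make up 65.1% of the span, were covered to 90.1% in CC and 24.8% in 2-cell embryos, against 96.4% and 27.5% of the other bases. The direction was the opposite in ICM (31.4% and 29.6%), TE (24.1% and 22.2%) and PN5 (9.20% and 6.80%).

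Nearly all later peaks in the span lay where CC had been marked. Of the 416 kb covered in CC, 46.3% was also covered in 6 hpa embryos, 71.1% in 14 hpa embryos, 27.8% in 2-cell embryos, 23.8% in 4-cell embryos, 23.9% in 8-cell embryos, 34.5% in morulae, 32.6% in ICM, 25.1% in TE and 8.97% in PN5. These comparisons share the CC list. Over all autosomes the kept share was 37.9% in 6 hpa embryos, 55.3% in 14 hpa embryos, 31.9% in 2-cell embryos, 32.005% in 4-cell embryos, 30.3% in 8-cell embryos, 39.9% in morulae, 37.1% in ICM, 34.9% in TE and 19.2% in PN5. The span kept more than the autosomes in 6 hpa and 14 hpa embryos and less from the 2-cell stage on. Chromosome 7 as a whole kept 26.5% in 2-cell embryos, 23.4% in 4-cell embryos, 22.5% in 8-cell embryos, 30.9% in morulae, 25.6% in ICM and 24.5% in TE, so against its own chromosome the span kept slightly more at these stages, and in PN5 it kept less than the 14.7% of chromosome 7. Conversely, 98.6% of the span bases covered in 6 hpa embryos and at least 96.0% of those in every other list were covered in CC, whereas over the autosomes 58.2% of the 6 hpa bases were. As the CC list filled 92.3% of the span, a share near that value would arise from any placement.

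Of the 224 kb covered in CC and not in 6 hpa embryos, 57.1% was covered in 14 hpa embryos, and of the bases covered in both CC and 6 hpa, 87.4% was. In 2-cell embryos 34.8% of the 14 hpa bases were covered. Bases covered in CC, 6 hpa, 14 hpa and 2-cell and not in PN5 amounted to 60.6 kb, 14.5% of the CC coverage, in 98 stretches. The fourth longest of these, 2186 bases at chr7:15545318-15547503, reached over the RefSeq start of Obox1, within sequence that Obox2 shares. Fertilized zygotes had 37.7 kb covered, 93.0% of it also covered in 14 hpa embryos, and the longer 14 hpa list covered 8.18 times as much of the span. At equal list length the span had 44.2% in 14 hpa embryos and 8.36% in PN5. The other 14 hpa shares of this paragraph were not recomputed at equal list length. In the blastocyst 62.0% of the ICM bases in the span were covered in TE and 81.5% of the TE bases in ICM, a Jaccard index (shared bases over bases of either list) of 0.544.

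Fold enrichment, the ratio of precipitate to input that the peak caller averages over each broad peak, is given list by list, as it moves with peak length and was not compared between lists. Within the 6 hpa list the highest fold over a RefSeq member body was 6.14, at Obox3. For Obox2 the highest fold lay between 3.24 and 4.50 in the lists from CC to TE and was 2.85 in PN5, and for Obox1 it lay between 3.01 and 4.01 and was 2.81 in PN5. Obox5 peaks reached 2.68 to 3.65, and the Obox6 peak had 2.98 in CC, 3.37 in 6 hpa embryos and 3.26 in 14 hpa embryos. Averaged by covered bases, peaks over the whole span had a fold of 3.32 in CC, 3.08 in 6 hpa embryos, 3.05 in 14 hpa embryos, 3.40 in 2-cell embryos and 3.01 in PN5.

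The strongest PN5 peak of the span lay in an intron of Obox3 and recurred in SCNT embryos. It was chosen for its fold in PN5. The PN5 peak covered chr7:15632678-15634113 with a fold of 4.25, in the RefSeq intron at chr7:15627384-15639388. Peaks at the same place had folds of 6.14 in 6 hpa embryos, 4.07 in 14 hpa embryos, 3.74 in 2-cell embryos, 3.41 in 4-cell embryos, 4.31 in morulae, 3.05 in ICM and 2.79 in TE, and in CC it lay within a peak of 19774 bases with a fold of 3.29. The 8-cell list had no peak there, so 9 of 10 lists did. Other bases of the span, 17875 in all, were under a peak in all 10 lists, among them chr7:15397941-15398186 near the end of Obox2. The intron peak alone accounted for the coverage of Obox3 in PN5 and in 4-cell embryos in the RefSeq model. The 336 bases common to the 9 lists (chr7:15632891-15633226) were soft-masked throughout, had a GC content of 67.6% and no CpG, and 63.7% of their positions started a sequence found once. The middle 240 bases of this stretch are shown because they lie in the PN5 peak of highest fold in the span, with capitals on every run of at least 2 successive TGCC units (136 bases).
Obox3 intron peak core (chr7:15632939-15633178, plus strand): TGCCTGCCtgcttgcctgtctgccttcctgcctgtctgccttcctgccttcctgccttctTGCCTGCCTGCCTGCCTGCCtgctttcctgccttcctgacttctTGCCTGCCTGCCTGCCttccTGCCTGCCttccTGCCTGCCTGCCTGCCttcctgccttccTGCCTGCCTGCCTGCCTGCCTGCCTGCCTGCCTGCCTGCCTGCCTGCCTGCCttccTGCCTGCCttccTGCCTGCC
The sequence is a simple repeat of short pyrimidine-rich units, with a far higher GC content than the member promoters above. How far reads from other copies of such repeats contributed was not tested.

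The rest of the family followed the members in donor cells. GENCODE lists 50 other genes with an Obox symbol, 48 of them on chromosome 7, most of them pseudogenes, and no other protein-coding gene starts within the span. Of these 50, 48 gene bodies were marked in CC, 30 in 6 hpa embryos, 42 in 14 hpa embryos and 20 in 2-cell embryos. The counts were 20 in 4-cell embryos, 22 in 8-cell embryos, 25 in morulae, 20 in ICM, 16 in TE and 1 in PN5. Each list from the 2-cell stage to TE thus had 32% to 50% of these relatives marked and at most 1 of the 5 members. The marked relatives were not the same in every list, as Obox3-ps7 had 0% in 2-cell embryos, 77.6% in 4-cell embryos and 100% in 8-cell embryos. The 4 with the highest mean coverage over the lists were Obox4-ps22 (90.0%), Obox4-ps14 (86.1%), Obox4-ps18 (86.0%) and Obox4-ps28 (85.7%), short copies of 1.70 to 1.94 kb, each without a peak in PN5. A short copy passes a 50% threshold with 1 peak more easily than a gene of 10 kb. No share over all pseudogenes was computed, so the counts of relatives stand without a background. Obox3-ps8 and Obox6-ps1, the pseudogenes on chromosome 17, had no peak in CC and 22.6% and 38.3% in 6 hpa embryos. Obox7, a maternally supplied protein-coding relative farther to the left than the flank described above, had 89.7% in CC, 24.6% in 6 hpa embryos, 66.5% in 14 hpa embryos, 0% in 2-cell embryos, 19.9% in 4-cell embryos, 35.2% in 8-cell embryos, 30.7% in morulae, 21.5% in ICM, 37.8% in TE and 0% in PN5.

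Related homeobox genes outside the array, Duxf3 excepted, did not have marked bodies in CC. Of 9 related homeobox genes, Argfx was not found by that symbol, and among the other 8 only Duxf3, a multicopy activator of 2-cell genes, was marked in CC, with 100% coverage that was 100% in every SCNT list to ICM, 77.1% in TE and 63.8% in PN5. Otx1, a head patterning factor, was 0% covered in CC and 75.2% in 6 hpa embryos, and Nobox, an oocyte regulator, had at most 2.00% in any list. Among 9 genes active at the 2-cell stage, Duxf3 included, 6 bodies were marked in CC, 4 in 6 hpa embryos, 3 in 14 hpa embryos and 1 in 2-cell embryos, with medians of 83.8%, 33.4%, 34.5% and 0%. For the Obox members these medians were 97.8%, 42.8%, 70.3% and 18.3%. Over all protein-coding genes 4.76%, 3.83%, 3.4% and 1.98% of bodies were marked in the same lists. To the left, the nearest protein-coding gene without Obox in its symbol was Vmn1r90, a vomeronasal receptor gene 825214 bases before the span, with 89.0% in CC, 24.997% in 6 hpa embryos, 30.0% in 14 hpa embryos and 0% in PN5.

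By the mean profile of the 5 members over the 10 lists, the most similar protein-coding genes outside the span were Zfp993, Zfp991, Zfp987 and Gm21411 on chromosome 4 and C87414 on chromosome 5. Their gene-body coverage differed from that profile by 4.01, 4.60, 6.55, 6.45 and 5.30 percentage points on average. Zfp993, the closest, had 85.5% in CC, 47.9% in 6 hpa embryos, 67.6% in 14 hpa embryos, 10.5% in 2-cell embryos and 9.68% in PN5, where the member mean was 96.3%, 48.2%, 70.9%, 16.5% and 4.70%. The 10 points of each profile share their reads with all other genes of a list, and the likeness is a description.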

How the data were processed

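H3K9me3 and input libraries of CC, SCNT embryos and PN5 zygotes were analysed as the authors' 10 peak lists. According to the study's methods, the authors trimmed reads with Cutadapt (version 1.16 in the submitters' processing notes), aligned them to mm10 with BWA mem, merged the replicates with SAMtools, removed duplicates and drew an equal number of reads with Picard, and called broad peaks over input with MACS2. Versions of the other tools, the MACS2 threshold and the treatment of reads with several equal placements are not given in the sources used here. The deposited lists hold, for each peak, a fold enrichment (a ratio), a −log10 q value averaged over the peak, and a score; −log10 p values and the score were not used. Depth was equalised by the authors, and counts of single libraries are not analysed here.

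Overlapping peaks were merged and covered bases counted over GENCODE M21 genes, over promoters (1 kb on each side of the start) and over the span from the first start to the last end of the 5 members (Python 3.11.15, numpy 2.4.6, pandas 2.3.3). The counting was tested on simulated peaks. A feature was marked at 50% coverage, and the background is the same share over 21938 protein-coding genes. The lowest −log10 q lay between 1.30 and 1.52 over the lists. Every 150-base sequence of the span was counted on both strands of GRCm38.p6. Promoter sequences were aligned pairwise with Biopython 1.88 without end-gap penalties, and shares of identical bases leave out gaps. Named genes were the members, other Obox genes, the nearest other genes on each side, lists of homeobox and 2-cell genes, and the 5 genes of most similar profile. The members and lists were chosen with earlier results of these data known. Alternatives were a −log10 q of at least 2, equal list length, a 10% threshold, promoters of 500 bases on each side, and unmasked bases. RefSeq models and bases in sequences found once were added after seeing the data. Absence of a peak means only that none passed the authors' threshold.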

Additional observations from a re-analysis of the deposited data

How the results depend on the processing

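No paired analysis was possible because the authors merged replicates ahead of peak calling, which also left no replicate to omit. Span and kept values are listed below where they left the Wilson 95% interval of the main value. With a −log10 q of at least 2, span coverage became 38.4% at 6 hpa and 18.4% at the 8-cell stage, and marked promoters by GENCODE starts fell to 0 at the 4-cell and 0 at the 8-cell stage. At equal list length, span coverage became 44.2% at 14 hpa, 24.9% in morulae and 26.2% in ICM, and the kept share of CC coverage 48.0% at 14 hpa and 27.1% in morulae. Marked bodies then numbered 3 at 14 hpa and 0 in ICM, and marked promoters 3 at 14 hpa, 0 at the 4-cell and 2 at the 8-cell stage. Over unmasked bases the span had 96.4% in CC, 50.01% at 6 hpa and 72.5% at 14 hpa. Over bases in sequences found once, an alternative chosen after seeing the data, it had 94.8% in CC, 17.6% at the 8-cell stage, 26.5% in morulae, 24.4% in ICM and 19.8% in TE. With a 10% threshold, marked bodies numbered 5 at 6 hpa, 5 at 14 hpa, 4 at the 2-cell, 3 at the 4-cell and 4 at the 8-cell stage, 4 in morulae, 3 in ICM, 3 in TE and 1 in PN5. Marked promoters then numbered 5 at 6 hpa, 4 at the 2-cell and 3 at the 4-cell stage, 2 in morulae and 1 in TE. The share over all protein-coding genes was computed only for the main setting, at 50%. Counts of marked members under every alternative therefore stand without a background, and the earlier background does not apply to them. RefSeq models, also chosen after seeing the data, gave 1 marked body in morulae, and 1 marked promoter each at the 4-cell stage and in TE. Promoters of 500 bases on each side moved no count by over 1.5 times. No alternative put a span value of an SCNT list at or below that of PN5, or one of an embryo list above CC. Pooled lists and reads that cannot be placed between copies limit every value at Obox1 and Obox2.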
